A study of Mus musculus with 2 samples.

Results

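The metabotropic glutamate receptors described here are 7 genes, Grm2, Grm3, Grm4, Grm5, Grm6, Grm7 and Grm8, taken by symbol from the 55536 genes of the deposited tables. Their RNA was measured in left cerebral cortex from 2 female mice, 10 days old, by sequencing of total RNA. The labels name no treatment. The labels give the strain as B6CASTF1/J, a first-generation hybrid of a C57BL/6 laboratory strain with the wild-derived CAST strain. Both libraries, replicates 1 and 2, form 1 group, so the design compares genes and transcripts within a library and the animals with each other, not conditions. The labels name separate females but give both the same donor record, and do not give the litter. The starting amount was 300 ng of RNA, to which ERCC spike-ins, synthetic transcripts, had been added. The reads assigned to genes numbered 29867112 for replicate 1 and 31031340 for replicate 2.

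Metabotropic glutamate receptors are G protein-coupled receptors that bind glutamate, the main excitatory transmitter of the cortex, in a large domain outside the cell. Group I receptors, here Grm5, couple to Gq proteins and phospholipase C and lie mostly beside the postsynaptic density. Group II (Grm2 and Grm3) and group III (Grm4, Grm6, Grm7 and Grm8) couple to Gi and Go proteins, lower cyclic AMP and act largely as brakes on transmitter release. Grm6 is the exception in place, being the receptor of retinal ON bipolar cells. The intracellular tail, which splicing can change, carries binding sites for scaffold proteins.

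The coding sequences grouped as the receptors do. In global pairwise alignments of the coding sequence of 1 transcript per gene, the leading one given below and Grm6-201, identity was 67.0 to 71.8% in the 7 pairs within a group, with a median of 69.1%. It was 56.6 to 62.3% in the 14 pairs between groups, with a median of 58.0%. Group II's only pair, Grm2 and Grm3, shared 67.6% of aligned bases.

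The coding ends of several receptors are given by more than 1 transcript, and the bases that set them apart are shown first because the transcript shares below compare these variants. All sequences are from GENCODE M21 transcripts, on the coding strand, with positions in mm10. For Grm5, the capitals mark the 96 bases of exon 8 of 9, at chr7:88116193-88116288 on the plus strand, which Grm5-204 holds and Grm5-202 lacks. They lie in the part that encodes the intracellular tail, and the variants with and without them are known as mGluR5b and mGluR5a.
Grm5-204: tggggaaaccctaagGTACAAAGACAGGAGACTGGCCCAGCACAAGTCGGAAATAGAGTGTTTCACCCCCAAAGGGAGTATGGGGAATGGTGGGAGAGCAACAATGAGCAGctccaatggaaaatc

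For Grm7 and Grm8, the capitals mark the last coding bases, stop codon included, after the last base that the variants of the gene share. Grm7-202 ends in exon 10 of 10 at chr6:111566018-111566067, and Grm7-201 ends with 71 such bases in exon 10 of 11 at chr6:111501510-111501580, both on the plus strand. They encode 915 and 922 codons, the forms known as mGluR7a and mGluR7b. Grm8-201 ends at chr6:27275645-27275694 and Grm8-202 at chr6:27285685-27285734, both on the minus strand and both with 908 codons. Grm4-201 ends at chr17:27426784-27426833 on the minus strand and is shown for comparison, with its last 50 coding bases, stop codon included, in capitals.
Grm7-202: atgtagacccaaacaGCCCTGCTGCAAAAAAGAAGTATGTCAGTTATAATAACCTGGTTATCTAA
Grm7-201: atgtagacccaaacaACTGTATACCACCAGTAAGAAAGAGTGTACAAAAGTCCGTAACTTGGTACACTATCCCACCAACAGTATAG
Grm8-201: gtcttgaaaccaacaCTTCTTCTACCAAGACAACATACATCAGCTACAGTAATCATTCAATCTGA
Grm8-202: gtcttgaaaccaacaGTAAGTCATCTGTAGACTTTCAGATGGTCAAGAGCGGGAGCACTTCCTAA
Grm4-201: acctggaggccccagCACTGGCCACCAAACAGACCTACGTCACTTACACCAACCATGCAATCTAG

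The ends of Grm4-201, Grm7-202 and Grm8-201 resembled each other. Of their 50 bases in capitals, Grm4-201 shared 30 with Grm7-202 and 30 with Grm8-201, and Grm7-202 shared 27 with Grm8-201. The Grm8-202 end shared 14 with Grm4-201, 14 with Grm7-202 and 15 with Grm8-201. It continues exon 10 of 11 into bases that are the start of an intron in Grm8-201.

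Levels are given in TPM, a length-normalised share of a gene among all transcripts, with the SD over 2 animals (n = 2 throughout). Exact tests over 2 animals cannot give a two-sided p under 0.5, so none was run. Instead, a ratio was set beyond the spread when both libraries gave the same sign and the mean log2 ratio exceeded 2 SD, with 0.1 TPM added to each value. This spread covers these samples only and may be partly technical.

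In the cortex at 10 days, 6 of the 7 receptors were detected, defined as 1 TPM or above in each library. The background was 59.1% of 22015 nuclear protein-coding genes, with genes of the mitochondrial genome left out. Grm5 and Grm3 were the most abundant, Grm7 and Grm2 intermediate, Grm4 and Grm8 low, and Grm6 was not detected. The 7 genes together had 288.49 TPM in replicate 1 and 272.69 in replicate 2. That was 0.0565% of the TPM of all nuclear protein-coding genes.

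Grm5, the group I receptor, lies at chr7:87584168-88134907 on the plus strand and spans 550.74 kb. It had 108.02 TPM from 11482 reads in replicate 1 and 94.57 TPM from 10648 reads in replicate 2, a mean of 101.3 ± 9.51 (SD). Replicate 1 was the higher, and 95.5% of nuclear protein-coding genes had a lower mean. In tissue RNA, fewer cells of a type and less RNA per cell cannot be told apart, which holds for every level here.

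In group II, Grm3, expressed by astrocytes as well as neurons, lies at chr5:9485541-9725170 on the minus strand. It had 84.37 TPM from 4660 reads in replicate 1 and 87.41 TPM from 5280 reads in replicate 2, a mean of 85.9 ± 2.15. The authors' TPM of Grm3 lies just above the upper bound of their own credible interval in each library, 83.7 and 86.9 TPM. Those intervals surround the authors' second estimate, the posterior mean, of 81.4 and 84.6 TPM.

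Grm2, a presynaptic receptor on glutamatergic axons, is the most compact member, 12.988 kb at chr9:106643095-106656082 on the minus strand. It had 29.00 TPM from 1841 reads in replicate 1 and 33.52 TPM from 2349 reads in replicate 2, a mean of 31.3 ± 3.20. Both group II receptors were thus higher in replicate 2, whereas every detected member of the other groups was lower in TPM there.

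In group III, Grm7, the receptor of the presynaptic active zone with low affinity for glutamate, spans 921.65 kb at chr6:110645581-111567230 on the plus strand. It had 45.08 TPM from 3097 reads in replicate 1 and 39.59 TPM from 2945 reads in replicate 2, a mean of 42.3 ± 3.88. Grm4, best known from cerebellar granule cells, lies at chr17:27422387-27521403 on the minus strand. Its level was 11.68 TPM from 851 reads in replicate 1 and 9.83 TPM from 840 reads in replicate 2, a mean of 10.8 ± 1.31. Beside it, the markers of cerebellar granule cells were low: 1 of 4 was detected, their summed TPM was 3.81 and 3.43, and the defining marker Gabra6 had 0 and 6 reads. Grm8, another presynaptic receptor, spans 860.06 kb at chr6:27275119-28135178 on the minus strand. It had 10.30 TPM from 594 reads in replicate 1 and 7.77 TPM from 516 reads in replicate 2, a mean of 9.04 ± 1.79.

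Grm6 lies at chr11:50850685-50866208 on the plus strand. It had 3 reads in replicate 1, or 0.04 TPM, with an exact 95% Poisson interval of 0.619 to 8.77 reads. Replicate 2 had 0 reads, which allows up to 3 reads or 0.035 TPM, and both limits cover counting error only. The deposited credible intervals of Grm6 reached higher, to 0.215 TPM in replicate 1 and 0.153 TPM in replicate 2. The alignment-free tables described below gave 4 and 0 reads. Of the markers of retinal bipolar cells, 0 of 5 were detected by TPM, with summed levels of 1.1 and 0.7 TPM, and none of the 5 was listed at 0. For Trpm1, among these 5, the deposited credible intervals lay above 1 TPM, from 1.29 to 8.74 and from 1.12 to 7.91.

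**Figure D1:**
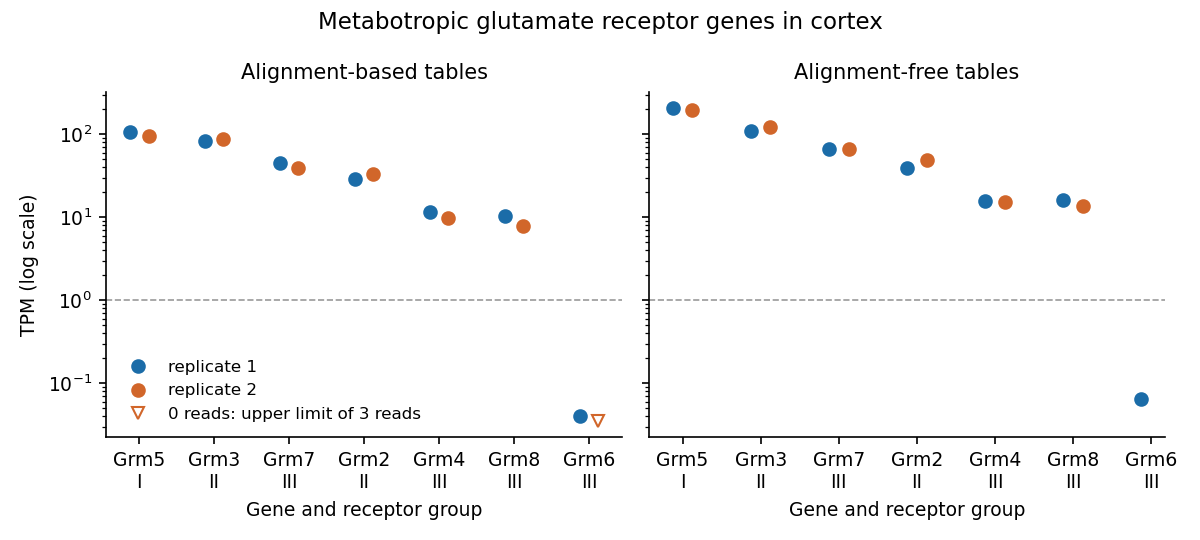
Levels of the 7 receptors in each animal on a log axis in TPM, from alignment-based tables on the left and alignment-free tables on the right, with a dashed line at 1 TPM. Grm5, Grm3, Grm7 and Grm2 follow in this order in both panels, with Grm4 and Grm8 close together below. An open triangle gives the upper limit of 3 reads for Grm6 in replicate 2 on the left, and its 0 is not drawn on the right.

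Between neighbours in this order, 4 of 6 steps were beyond the spread. They include Grm8 over Grm6, whose size was largely set by the 0.1 TPM added to each value. The order was made from the same TPM values, so the direction of each mean step was set by the sorting. No background over pairs of other genes was computed, so the count describes these receptors only. Grm5 exceeded Grm3 in both libraries, with log2 ratios of 0.36 and 0.11, but the mean of 0.23 was within 2 SD, so these receptors did not differ beyond their spread. In the alignment-free tables the same mean was 0.79 and beyond the spread. Grm3 was above Grm7 by 0.90 and 1.14 on the log2 scale, a 2.03-fold mean step beyond the spread. Grm7 and Grm2 did not differ beyond their spread, with log2 ratios of 0.63 and 0.24, but did in the alignment-free tables, with a mean of 0.60. The step from Grm2 to Grm4 was the widest among detected receptors, at 1.30 and 1.76, or 2.89-fold. Grm4 exceeded Grm8 by 0.18 and 0.34, beyond the spread, yet their credible intervals overlapped in both libraries. In every other step, including Grm5 over Grm3 and Grm7 over Grm2, the intervals lay apart in both libraries. Such intervals hold no difference between animals. Grm8 was above Grm6 in both libraries, and no fold is given because Grm6 was at the floor.

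Of the family's TPM, group I held 36.1% ± 1.95, group II 41.8% ± 3.57 and group III 22.1% ± 1.62. Group I held 37.4% in replicate 1 and 34.7% in replicate 2, and group II held 39.3% and 44.3%. Group III was the lowest in each library, with 23.3% and 20.97%. Counted as reads without length normalisation, the shares were 49.1%, 31.3% and 19.6%, and Grm5-202, of 8047 bases, is the longest of the leading transcripts. The order of groups I and II differed between these scales.

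The coding variants were compared within each receptor. A variant's share is its TPM over the TPM of all transcripts of the gene with a complete coding sequence. For Grm5, the form without the 96-base exon, at 1171 codons, took 62.9% in replicate 1 and 58.6% in replicate 2, a mean of 60.7% ± 3.04. The form with it, at 1203 codons, took 39.3% ± 3.04. Their ratio was 1.55-fold and beyond the spread. In the alignment-free tables the first form took 55.6% and the ratio, 0.33 on the log2 scale, was within the spread. The Grm5-202 model also reaches further at both ends than Grm5-204, so more than the 96 bases separates them.

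Grm7 showed the same order in both kinds of table. The mGluR7a form, Grm7-202, took 78.8% and 74.7%, a mean of 76.8% ± 2.91, and the mGluR7b form took 23.2% ± 2.91. This was a 3.29-fold difference beyond the spread, and 2.41-fold in the alignment-free tables. Credible intervals of the transcripts were apart, with 27.6 to 32.0 TPM for Grm7-202 and 5.66 to 10.96 TPM for Grm7-201 in replicate 1.

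For Grm8, the end of Grm8-202 predominated. It took 69.7% in replicate 1 and 67.0% in replicate 2, a mean of 68.4% ± 1.88 with Grm8-203, which ends alike. The Grm8-201 end, the one that resembles Grm4-201 and Grm7-202, took 31.6% ± 1.88. The difference was 2.11-fold, and 1.61-fold in the alignment-free tables, both beyond the spread. In replicate 2, however, the credible intervals overlapped, with 2.40 to 4.59 TPM for Grm8-202 and 0.935 to 2.89 TPM for Grm8-201.

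Grm2 has 2 main coding forms. Grm2-201 encodes 872 codons, and Grm2-203 encodes 594, because 834 bases inside exon 4 of 6, at chr9:106647271-106648104 on the minus strand, are removed as an intron. These bases encode 278 codons. In all, the Grm2-201 model has 4711 bases and the Grm2-203 model 2111, so more than the 834 bases separates them. The capitals below mark the first and the last 20 bases of the removed stretch, which begins with GT and ends with AG as introns do. The 3 bases AAG precede the stretch and also end it.
Start: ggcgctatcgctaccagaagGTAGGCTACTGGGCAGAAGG
End: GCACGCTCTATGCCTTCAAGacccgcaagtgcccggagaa

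Grm2-201 took 53.2% in replicate 1 and 54.7% in replicate 2, a mean of 54.0% ± 1.04, and Grm2-203 took 46.0% ± 1.04. The 1.17-fold ratio was beyond the spread in these tables. In the alignment-free tables it was -0.01 on the log2 scale, so the order of the forms was not settled. By reads, which are not corrected for the longer Grm2-201 model, Grm2-201 took 72.9%.

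In Grm4, the 912-codon form took 81.2% and 84.6%, a mean of 82.9% ± 2.40. Grm4-207, of 865 codons, skips the 141-base exon 6 of 11, at chr17:27450125-27450265, and took 16.5% ± 3.30. The ratio was 4.84-fold, and 8.68-fold in the alignment-free tables. The credible interval of Grm4-207 reached down to 0.00277 TPM in replicate 1 and 0.00016 TPM in replicate 2, close to 0 in both. Grm3 has a single annotated transcript.

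**Figure D2:**
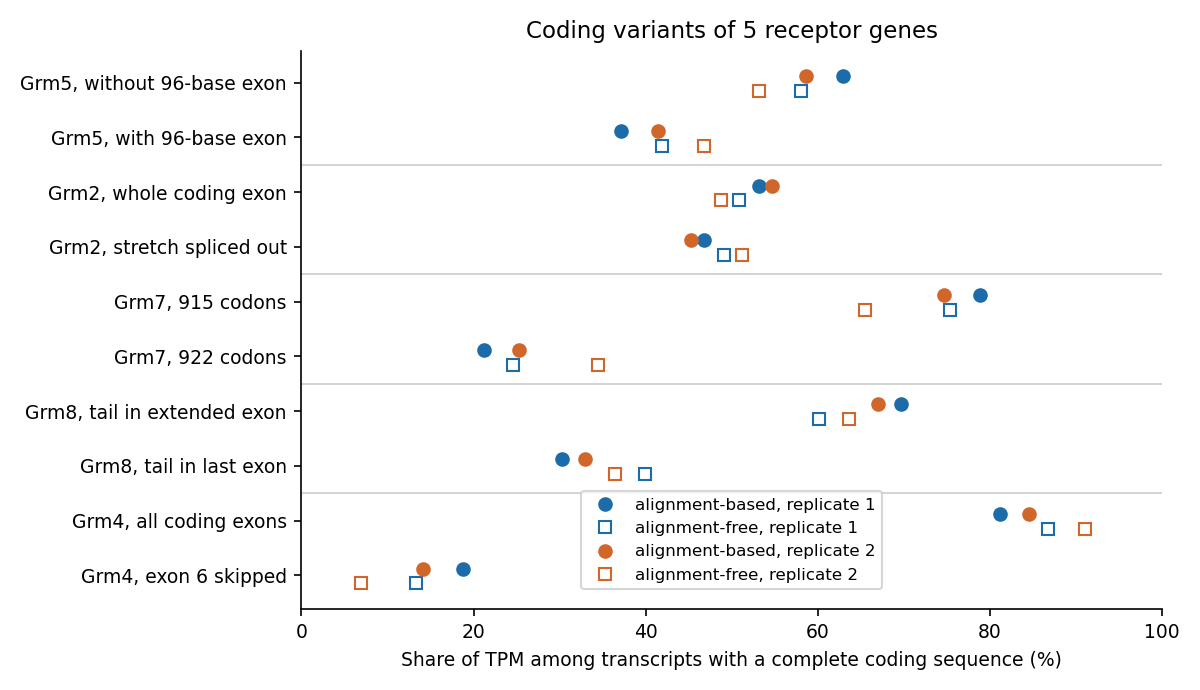
Share of each coding variant in percent of the gene's complete coding transcripts, per animal, for Grm5, Grm7, Grm8, Grm2 and Grm4, from alignment-based and alignment-free tables. The variants of Grm7 and Grm4 lie far apart in every table, while those of Grm2 lie near 50.2% and 49.8% in the alignment-free tables.

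Of the 5 detected receptors with more than 1 transcript, 5 had the same leading transcript in both libraries, against a background of 88.6% of 11756 protein-coding genes with 2 or more transcripts. With Grm3, which has only 1, the leaders were Grm5-202, Grm3-201, Grm7-202, Grm2-201, Grm4-201 and Grm8-202. In the alignment-free tables it was 3 of 5, background 86.5%, and across both kinds of table it was 3 of 5, background 67.1%. The exceptions were Grm2, where Grm2-203 led in replicate 2 with 24.6 TPM against 23.4, and Grm5. For Grm5 the leader there was Grm5-205, a 551-base transcript without a coding sequence, at 64.5 TPM against 60.9 TPM for Grm5-202. The alignment-based tables gave Grm5-205 only 11.34 and 11.02 TPM.

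Transcripts without a coding sequence, or marked for decay, took 17.3% ± 0.207 of Grm5 TPM, and 41.5% in the alignment-free tables. They took 7.50% ± 1.41 in Grm8, 6.92% ± 4.75 in Grm4, 6.13% ± 0.423 in Grm7 and nothing in Grm2 and Grm3. With coding transcripts alone, the mean log2 ratio of Grm5 to Grm3 was -0.04, and its sign differed between the animals. The coding forms of Grm5 had 56.29 and 33.22 TPM in replicate 1, together above the 84.37 TPM of Grm3. In replicate 2 they had 45.75 and 32.33 TPM, together below its 87.41 TPM. Without the noncoding models, neither gene was thus the higher in both libraries. Of the 36 annotated transcripts of the receptors, 6 were listed at 0 TPM in all 4 transcript tables.

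Alignment-free TPM was higher for most genes, with a median log2 ratio of 0.59 over 12945 nuclear protein-coding genes. Against that median, Grm5 was 1.34-fold higher and the other detected receptors were 0.91-fold to 1.11-fold. None of the 6 was more than 1.5-fold from the median, against a background of 5.71%.

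Other annotated genes overlap the spans of the receptor genes, and whether they lie in introns was not checked. Inside the members lie 9 genes of type TEC, models still to be tested by experiment, 8 of them on the receptor's strand, and 2 were detected, both in Grm5. Gm44846 had 2.53 TPM from 149 reads in replicate 1 and 1.66 TPM from 107 reads in replicate 2. Gm44847 had 1.72 and 1.03 TPM. No background over all TEC genes was computed, so the count of 2 describes these receptors only. Reads of the 8 TEC genes on the receptor's strand cannot be told apart from unspliced RNA of that receptor. Gm44848, also in Grm5, had 25 and 13 reads, against 150 and 135 in the alignment-free tables. Gm20387, on the opposite strand at the start of Grm7, had 74 and 71 reads, or 2.35 and 2.06 TPM. The antisense genes at Grm2 and Grm6, Gm28111 and Gm12660, had 0 reads in both libraries. The sources used here do not say whether counting used the strand, so reads where Gm20387 overlaps the start of Grm7 cannot be told apart.

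Between the animals, none of the 6 receptors with 100 reads or more was 2-fold apart, against a background of 0.355% of 12689 genes. On the log2 scale of TMM-scaled reads, replicate 2 over replicate 1 was 0.34 for Grm2 and 0.17 for Grm3. It was -0.03 for Grm4, -0.09 for Grm7, -0.12 for Grm5 and -0.22 for Grm8. From the 10th to the 90th percentile, all genes lay between -0.18 and 0.19, so Grm2 and Grm8 fell outside that band and the other 4 within it. The Grm2 ratio was larger in size than that of 93.9% of genes. Grm2, Grm5 and Grm7 had credible intervals that did not overlap between the animals, 3 of the 6 receptors with 100 reads or more, against a background of 14.5% of genes with as many. Those intervals hold no difference between animals.

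Markers of other cells moved between the same libraries. The 4 markers of myelinating oligodendrocytes were all higher in replicate 2, with summed levels of 146.19 and 302.53 TPM, and none was at 0. The 5 striatal markers summed to 47.67 and 34.9 TPM, with 4 detected. The part of either in the receptor ratios was not tested. Markers of cortical excitatory neurons summed to 752 TPM in both libraries with 5 of 5 detected, and those of astrocytes to 325 and 311 TPM with 5 of 5.

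**Figure D3:**
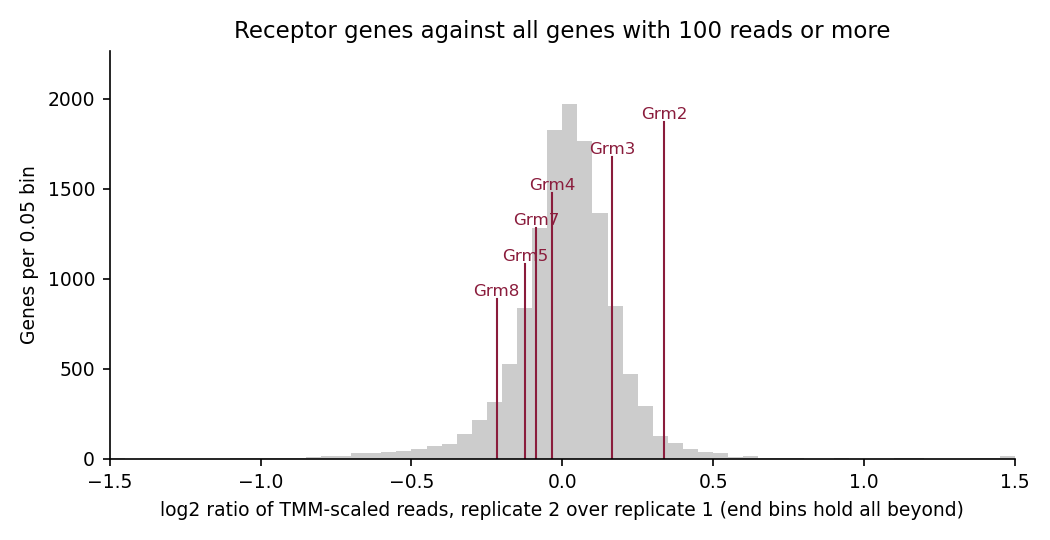
Histogram of log2 ratios of TMM-scaled reads, replicate 2 over replicate 1, for 12689 genes with a mean of 100 reads or more (values beyond the axis are counted in the end bins), with the 6 detected receptors marked by lines whose height carries no value. Grm2 at 0.34 and Grm8 at -0.22 stand at the edges, and the other 4 lie inside the 10th to 90th percentile.

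The machinery around the receptors was present almost throughout: 56 of 61 listed genes were detected, against the background of 59.1%. Among 10 G proteins and effectors of group I receptors all were detected, with a median of 57.7 ± 3.39 TPM. Prkcb, a protein kinase C isoform, had 404 and 406 TPM, and Gnaq, the G protein that Grm5 acts through, had 103 and 94.4. All 9 scaffolds and binding partners of group I were detected, with a median of 72.1 ± 2.18 TPM. The neurochondrin gene Ncdn led with 342 and 346 TPM, before the postsynaptic scaffolds Shank1 with 213 and 225 TPM and Shank3 with 96.7 and 93.5. Homer3, from the family that binds the Grm5 tail, was the lowest at 3.91 and 4.84 TPM.

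For groups II and III, all 13 G proteins and effectors were detected, with a median of 33.6 ± 0.304 TPM. Gnao1, the Go subunit, had 541 and 528 TPM, the adenylyl cyclase Adcy1 239 and 269, and Gnai2 120 and 112. Adcy8 was the lowest with 14.7 and 13.6 TPM. The 4 partners of group III receptors had a median of 24.3 ± 0.463 TPM. Elfn2 had 45.5 and 43.2 TPM, Pick1, which binds the Grm7 tail, 26.6 and 26.3, and Grip1 22.6 and 20.5. Elfn1, a postsynaptic protein that contacts presynaptic Grm7, had the lowest mean, with 19.9 and 21.5 TPM.

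Of the 5 retinal partners of Grm6, only Rgs11 was detected, at 35.7 and 31.8 TPM. The channel Trpm1, which Grm6 closes, had 0.44 and 0.20 TPM. Its deposited credible intervals lie above these values and above 1 TPM, from 1.29 to 8.74 and from 1.12 to 7.91, so its call depends on the estimate used. Nyx had 0.20 and 0.23 TPM, Gpr179 0.09 and 0.12, and Lrit3 0.07 and 0.06. By TPM, 4 of the 5 were below 1.

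All 8 kinases, arrestins and RGS proteins, which limit receptor signalling, were detected with a median of 43.0 ± 3.86 TPM. Rgs4 had 147 and 144 TPM, Arrb1 96.9 and 93.5, and Grk2 76.0 and 87.4, with Grk5 the lowest at 7.59 and 7.60. Of 12 genes that supply or remove glutamate and the group II ligand NAAG, 11 were detected, with a median of 34.3 ± 3.71 TPM. The glial transporter Slc1a2 had 648 and 672 TPM, the vesicular transporter Slc17a7 522 and 501, and glutamine synthetase, Glul, 419 and 440. Naalad2, a peptidase gene of the NAAG-cleaving family, was the lowest with 0.73 and 0.52 TPM.

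**Figure D4:**
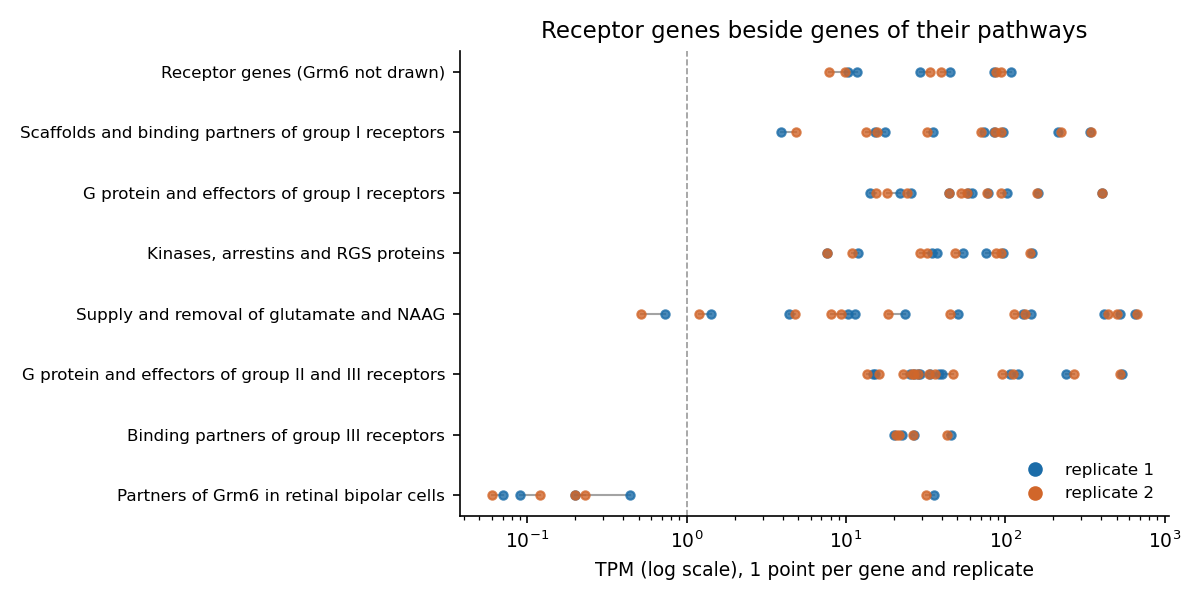
Levels of the listed pathway genes in TPM on a log axis, 1 row per list below a row of the receptors without Grm6, with 1 point per gene and animal, a line joining the animals and a dashed line at 1 TPM. In 6 of the 7 lists nearly all genes lie above that line, while 4 of the 5 Grm6 partners lie below it.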

How the data were processed

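The deposited expected counts and TPM, for genes and for transcripts, derive from the authors' alignments to the transcriptome (mm10, annotation M21), as the README files state. The authors' alignment-free tables, per the same files, hold estimated counts and TPM made directly from the reads. The columns are those of RSEM and kallisto, but tools, versions and the level of the credible intervals are not stated in the sources used here. Reads were set against the mm10 reference, so reads of CAST alleles that differ from it may count less.

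Members were matched by symbol and versioned identifier, and coordinates, coding sequences and exons came from GENCODE M21. Ratios between animals used expected counts rounded to whole numbers, TMM factors (edgeR 4.0.16, R 4.3.3), 0.5 added to each and a mean of at least 100 reads. Other steps used Python 3.11.15, pandas 2.3.3 and Biopython 1.88, with DESeq2 1.42.0 size factors as an alternative. The ratio step was tested on simulated data. All 7 members were named, and of each pathway list the 3 highest genes, the lowest, and genes under 1 TPM or 2-fold apart. A few of these are not reported here. Spike-ins were left out of gene reads (0.413% and 0.401%). The receptors, the lists and the limits were chosen with earlier results of these data known.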

Additional observations from a re-analysis of the deposited data

How the results depend on the processing

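The receptor group shares moved with the scale. Group I held 49.1% of expected counts, 44.0% of alignment-free TPM and 32.3% of TPM from protein-coding transcripts, against 36.1%. Group II held 31.3% of expected counts and 35.0% of alignment-free TPM, and group III 19.6% of expected counts. The log2 ratio of Grm5 over Grm3 was -0.039 with protein-coding transcripts only and 0.79 in the alignment-free tables, against 0.23, and that of full Grm2 over its spliced form -0.010 in the alignment-free tables; the cause was not tested. With no minimum of reads, 1 receptor was 2-fold apart between the animals, Grm6, on 3 reads and 0. Without either replicate the shares ranged from 34.7 to 37.4%, 39.3 to 44.3% and 20.97 to 23.3%. The 4 steps beyond the spread became 5 in the alignment-free tables and 3 with coding transcripts only. Grm4 over Grm8 was within the spread in both, and the alignment-free tables gained Grm5 over Grm3 and Grm7 over Grm2, at 0.60. Detection of 6 receptors held under every limit and scaling tried. Alternatives for coding variants were added after the data were seen. No SD can be had from 1 library, so steps were not counted without a replicate. No paired analysis was possible because both libraries belong to 1 group. Depth limits Grm6 and single transcripts of Grm4 and Grm8.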
